A study of Homo sapiens with 8 samples.

Results

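The genes described here are regulators and executioners of apoptosis: the BCL2 family, caspases, the mitochondrial factors that switch caspases on, the inhibitor of apoptosis proteins (IAPs), death receptors with their adaptors, and the factors that cut DNA in dying cells. A list of 44 genes was taken, and every array probe annotated with 1 of these symbols was a member, whatever its values. The array carried 78 such probes for 42 of the genes, out of 24531 probes and 16922 named genes in all. RIPK1 and DFFB were not analysed here. Expression was measured on 8 Illumina arrays, 72 h after siRNA transfection, in 2 established ovarian carcinoma lines: TOV-21G, a clear cell carcinoma line, and SK-OV-3, a line with amplified ERBB2. The groups, with 2 arrays each, were TOV-21G with an siRNA against CSE1L, TOV-21G with a scrambled control siRNA, SK-OV-3 with the CSE1L siRNA, and SK-OV-3 with the scrambled siRNA. Controls were thus transfected too, and both siRNAs acted transiently in whole cultures of 1 line each. Arrays 1 and 2 of a group are experiments 1 and 2 in the labels, which do not say whether these were separate cultures, so p-values measure the spread between arrays and that spread may be technical.

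In the intrinsic route of apoptosis, BH3-only proteins sense damage and bind either the protective BCL2 proteins or the effectors BAX and BAK, which then open the outer mitochondrial membrane. Cytochrome c leaves through these openings, assembles with APAF1 into the apoptosome and activates caspase 9, while SMAC/DIABLO and HTRA2 release caspases from the IAPs. In the extrinsic route, ligands such as TRAIL and TNF bind death receptors, and adaptors recruit caspase 8 or caspase 10. CSE1L, also called CAS for cellular apoptosis susceptibility, exports importin alpha from the nucleus. The series asked how silencing it alters expression in each line.

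All levels are log2 intensities after background correction and quantile normalization, and a change is the CSE1L siRNA mean minus the control mean. Probes differ in brightness for the same amount of RNA, so levels of different probes are not read as relative amounts of RNA. A probe counts as detected on an array where its detection p-value, its rank against the negative control beads, lies below 0.01. Each array detected 9206 to 9820 probes (37.5% to 40.0%), and replicate arrays correlated across probes at r = 0.971 to 0.981. CSE1L had levels of 8.80 and 7.72 in silenced TOV-21G, against 13.02 and 11.65 in its controls, and of 10.51 and 8.99 in silenced SK-OV-3, against 12.04 and 12.56 in its controls. It fell by 4.08 in TOV-21G (SE 0.63, limma adjusted p = 0.0266). Its change in SK-OV-3 was -2.55 (SE 0.63, 5.86-fold lower), with both silenced arrays below both controls. There the limma p of this gene, the target of the siRNA, was 0.00357 unadjusted and 0.265 when adjusted over all tested probes. The mean of both lines was -3.31 (limma adjusted p = 0.0283). Each array reads the RNA of a whole culture, so fewer cells with a transcript and less of it per cell cannot be told apart. In TOV-21G the CSE1L call was lost without silenced replicate 2 (0.117), control replicate 1 (0.159) or control replicate 2 (0.0854). Among markers of the tissue, 5 of 6 epithelial and 3 of 4 ovarian epithelial genes were detected, EPCAM and MUC16 were detected on no array, and the clear cell marker NAPSA was detected on 1 array. ERBB2 lay between 11.36 and 11.76 on TOV-21G arrays and between 14.99 and 15.65 on SK-OV-3 arrays. CDH1, the epithelial cadherin, had levels of 5.85 and 6.07 in silenced TOV-21G, against 7.57 and 7.99 in controls, and was detected on those 2 controls and no other array. With silenced TOV-21G set at the limit of detection, it was 2.44-fold lower there (fitted change -1.82, adjusted p = 0.0202, and 0.0249 with the block). That call was lost without silenced replicate 2 (0.0838) and with the authors' normalized values (-0.59, adjusted p = 0.0553), and without either TOV-21G control the probe did not pass the filter. Of 4 fibroblast genes, COL1A1 was detected on all 8 arrays, PDGFRA on 6, and COL1A2 and COL3A1 on none. The leukocyte genes PTPRC and CD3E were detected on no array, and CD14 was detected on 5. Of the fibroblast and leukocyte genes, 0 were called for silencing in either line, and the part of any marker in the results below was not tested.

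Most of the machinery was measurable in these cells. A probe was tested if it was detected on at least 2 of the 8 arrays, which 50 of the 78 member probes were (64.1%, against 44.4% of all probes), and these stand for 35 of the 42 genes. Of the member probes, 37 were detected on all 8 arrays, 15 on some and 26 on none. The gaps lay mostly among caspases and BH3-only genes, where 11 of 17 and 9 of 17 probes were detected on no array. CASP4, CASP6 and CASP8, HRK (a BH3-only protein), TNFSF10 (the death ligand TRAIL) and XIAP (the IAP that binds active caspases) had no detected probe on any array, and BIRC6 was detected on 1 array. These 7 genes were not tested. Apart from BIRC6 on that 1 array, the arrays show for them no more than a signal not above background. Since the filter asks for detection on 2 arrays, a few probes passed through 1 group of arrays alone, and these are named below.

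**Figure D1:**
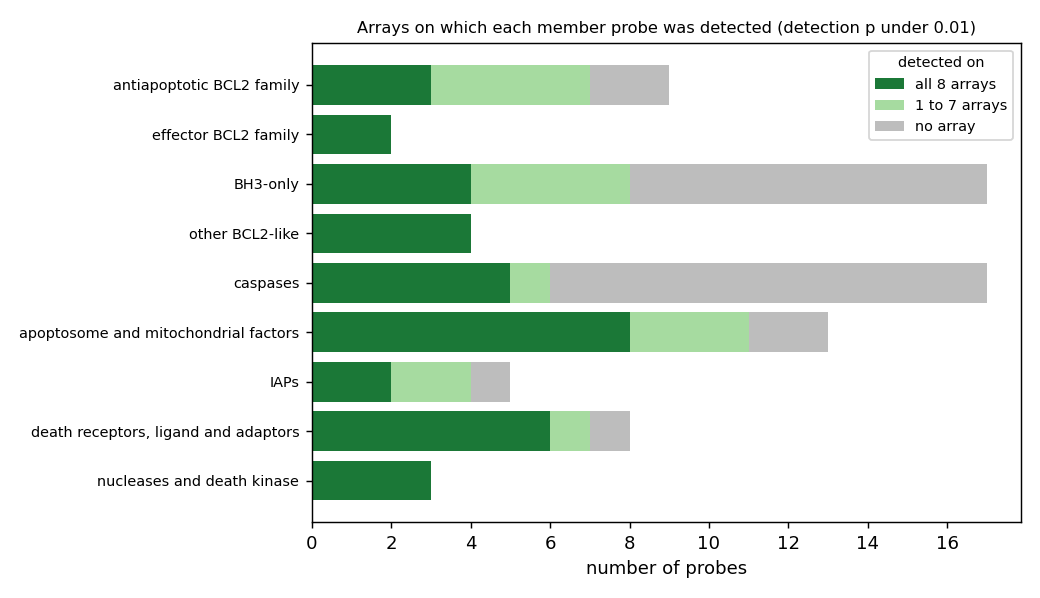
Number of member probes (horizontal axis) in each class (rows) that were detected on all 8 arrays, on 1 to 7 arrays or on no array. All 4 probes of the other BCL2-like class and both effector probes were detected on all 8 arrays, while 11 of 17 caspase probes were detected on none.

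No member probe passed an adjusted p of 0.05 for the effect of silencing in limma, in either line. In TOV-21G, 0 of 50 were called, against 3.07% of all 10888 probes tested, and 19 had an unadjusted p under 0.05 (38.0%, against 19.6% of all probes). In SK-OV-3, 0 were called beside 0% of all probes, and 4 had an unadjusted p under 0.05 (8%, against 9.56%). The mean of both lines gave 0 calls (1.99% of all probes) and 12 with an unadjusted p under 0.05 (24.0%, against 20.1%). The difference between the lines (TOV-21G minus SK-OV-3) gave 0 calls (0% of all probes) and 8 with an unadjusted p under 0.05 (16%, against 9.97%).

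Allowing for the experiment number gave calls in TOV-21G. Deviations of same-numbered arrays from their group means correlated at r = 0.548 in TOV-21G. In SK-OV-3 r was 0.121, smaller in size than the -0.184 and -0.131 between the lines, so pairing there is not shown. With the experiment number as a replicate block, 6 member probes of 5 genes were called in TOV-21G, or 12%, against 5.63% of all probes. TNFRSF10D and DAPK3 were higher in silenced cells, and both called CASP2 probes, 1 BCL2L12 probe and 1 BIRC5 probe were lower. For the mean of both lines the block called 3 (6%, against 4.42% of all probes): BCL2L12, CASP2 and DAPK3. SK-OV-3 and the difference had 0 calls with the block as well. The blocked fit has 2 residual degrees of freedom among samples, and leaving out single arrays was run only without the block.

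The members' changes spread widely in TOV-21G and less in SK-OV-3. They ran from -1.44 to 1.75 in TOV-21G, with a median of 0.11 beside 0.01 over all probes, and 27 of 50 lay above 0. In SK-OV-3 they ran from -0.80 to 1.72, with a median of -0.09 beside -0.01, and 22 lay above 0. A change of at least 1 in either direction was seen for 7 members in TOV-21G (14.0%, against 7.88% of all probes) and for 1 in SK-OV-3 (2%, against 3.22%). The SK-OV-3 probe (BMF) and 1 of the 7 in TOV-21G (MCL1, ILMN_1803988) were detected in silenced cells of that line alone, so these fitted changes are set against undetected controls and the probes entered the test through that group. The median SE of a member's change was 0.27 in each line.

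**Figure D2:**
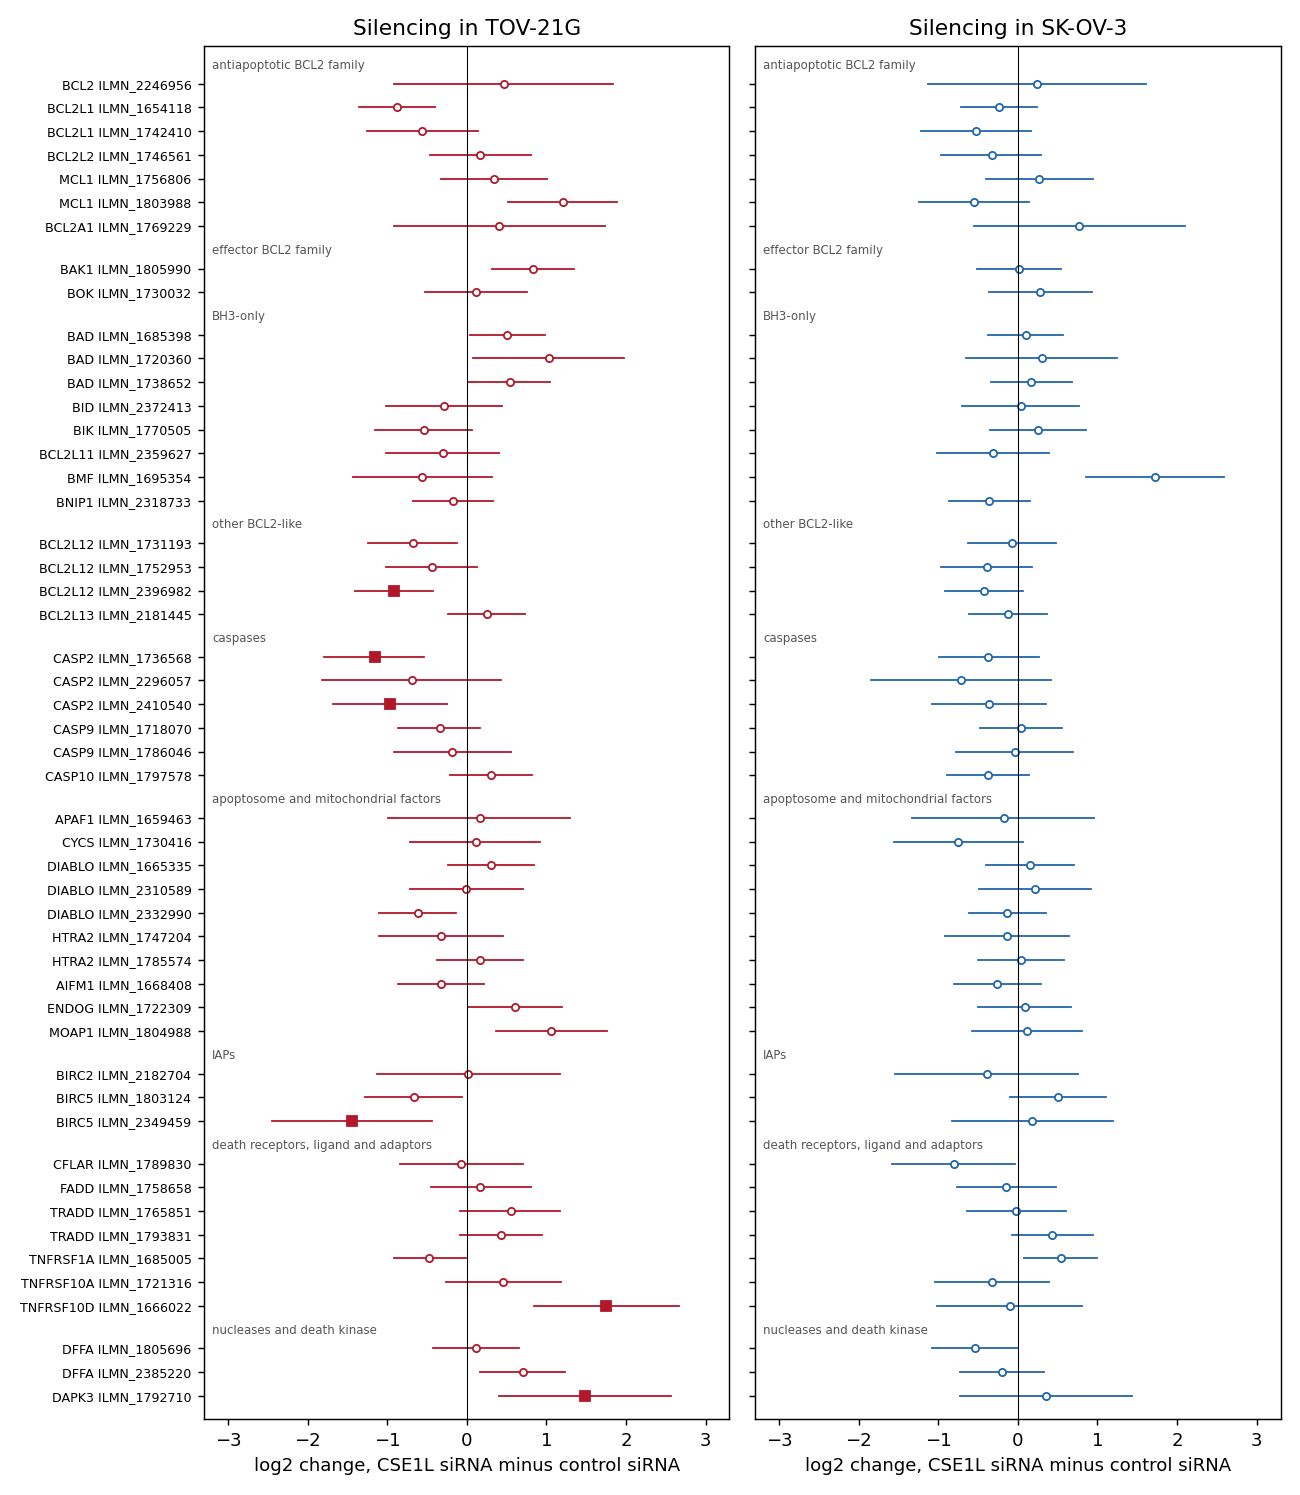
Change after CSE1L silencing (horizontal axis, log2, CSE1L siRNA minus control siRNA) of the 50 tested member probes, by class (rows), in TOV-21G (left) and SK-OV-3 (right), with bars for the 95% confidence interval of the unblocked limma fit. Filled squares mark the 6 probes called in TOV-21G with the replicate block, and TNFRSF10D has the highest change there, at 1.75.

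Complete separation of silenced from control arrays was common over the whole array, so it is read against that background. In TOV-21G both silenced arrays lay below both controls for 16 members (32.0%, against 24.5% of all probes) and above both for 17 (34.0%, against 24.2%). In SK-OV-3 they lay below for 14 (28.0%, against 21.0%) and above for 8 (16%, against 20.7%). In both lines at once, 6 members lay below (12%, against 7.97%): both BCL2L1 probes, 2 BCL2L12 probes, 1 DIABLO probe and the AIFM1 probe. Some of these margins were narrow, as given below. A BAD probe and a TRADD probe lay above in both lines (2 members, 4%, against 7.89%).

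Among the protective BCL2 proteins, BCL2L1 had negative changes at both probes in both lines. The other 5 tested probes of the class had positive changes in TOV-21G and changes of either sign in SK-OV-3, and none passed the test. BCL2L1 encodes BCL-XL, which holds BAX and BAK in check. Its probe ILMN_1654118 had levels of 13.28 and 13.23 in silenced TOV-21G, against 14.02 and 14.25 in controls, and of 14.21 and 14.01 in silenced SK-OV-3, against 14.35 and 14.35 in controls. The silenced arrays were below the controls in each line without overlap. The change was -0.88 in TOV-21G (SE 0.21, adjusted p = 0.0657, and 0.0580 with the block) and -0.24 in SK-OV-3 (adjusted p = 0.793). A further BCL2L1 probe for the same annotated transcript, ILMN_1742410, again had groups without overlap in either line. Its change was -0.56 in TOV-21G and -0.53 in SK-OV-3 (adjusted p = 0.365 and 0.632). Its nearest TOV-21G arrays read 6.70 in silenced cells and 6.71 in controls, with 1 of the 2 silenced arrays undetected.

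MCL1, a short-lived protective protein, had a pair of probes that differed in behaviour. ILMN_1803988 had levels of 7.19 and 6.75 in silenced TOV-21G, against 5.53 and 6.0 in controls, and was detected on those 2 silenced arrays and on no other. It therefore entered the test through that group alone. Its signal was 1.39-fold higher in silenced TOV-21G than the limit of detection in the controls (fitted change 1.21, adjusted p = 0.0745). In SK-OV-3 its levels were 5.49 and 6.13 in silenced cells, against 6.37 and 6.35 in controls. The MCL1 probe detected on all 8 arrays, ILMN_1756806, is for the same annotated transcript and had a change of 0.34 in TOV-21G and 0.27 in SK-OV-3 (adjusted p = 0.589 and 0.839). BCL2 itself had a change of 0.47 in TOV-21G and 0.24 in SK-OV-3, each with an SE of 0.59. BCL2L2 (BCL-W) had a change of 0.17 and -0.33, and BCL2A1, detected on 4 arrays and on neither SK-OV-3 control, had 0.41 and 0.77, in TOV-21G and SK-OV-3 in that order. Over the 7 tested probes of the class the median change was 0.34 in TOV-21G and -0.24 in SK-OV-3.

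Both tested effector genes had positive changes that missed the threshold. BAK1 encodes BAK, which forms pores in the outer mitochondrial membrane. Its levels were 8.01 and 8.24 in silenced TOV-21G, against 7.17 and 7.43 in controls, and 7.51 and 7.67 in silenced SK-OV-3, against 7.43 and 7.72 in controls. The TOV-21G groups were apart and the SK-OV-3 groups overlapped. BAK1 had a change of 0.83 in TOV-21G (SE 0.23, 95% interval 0.31 to 1.35, adjusted p = 0.0998, and 0.0576 with the block) and of 0.02 in SK-OV-3 (adjusted p = 0.988). BOK, a relative of BAK, had a change of 0.12 in TOV-21G and 0.28 in SK-OV-3.

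BH3-only genes had no common direction, with 3 of 8 tested probes above 0 in TOV-21G and 6 of 8 in SK-OV-3. All 3 positive changes in TOV-21G belonged to BAD, whose protein neutralises BCL2 and BCL-XL. The BAD probe ILMN_1738652 had levels of 11.53 and 11.86 in silenced TOV-21G, against 11.15 and 11.15 in controls, and of 11.47 and 11.46 in silenced SK-OV-3, against 11.44 and 11.16 in controls. Silenced arrays lay above controls in each line, by a narrow margin in SK-OV-3. Its change was 0.54 in TOV-21G and 0.17 in SK-OV-3 (adjusted p = 0.231 and 0.874). The other BAD probes had changes of 0.51 (ILMN_1685398) and 1.03 (ILMN_1720360) in TOV-21G, also without overlap and with adjusted p of 0.223 and 0.221, and of 0.10 and 0.30 in SK-OV-3.

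BMF, a BH3-only protein tied to the cytoskeleton, was detected in silenced SK-OV-3 alone. Its levels there were 7.36 and 6.80 in silenced cells, against 4.79 and 5.92 in controls, while TOV-21G arrays read 4.81 and 4.86 in silenced cells, against 5.53 and 5.26 in controls. It too passed the filter through 1 group. The signal was 1.31-fold higher in silenced SK-OV-3 than the limit of detection in the controls (fitted change 1.72, adjusted p = 0.223). BIK, which acts at the endoplasmic reticulum, was detected on no array but the 2 TOV-21G controls (6.63 and 7.30). It passed the filter through that group alone. Silenced TOV-21G arrays read 6.37 and 6.47. The fitted change was -0.54 (SE 0.26, adjusted p = 0.310), so a decrease was not shown. With silenced TOV-21G set at the limit of detection, BIK was 1.38-fold lower there, a point value and not a minimum. BID, BCL2L11 (BIM) and BNIP1 had changes of -0.29, -0.30 and -0.17 in TOV-21G and of 0.04, -0.31 and -0.36 in SK-OV-3.

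BCL2L12, a BCL2-like protein of the nucleus and cytoplasm, had negative changes at all 3 of its probes in both lines, and 1 of them was called in TOV-21G with the block. For ILMN_2396982 the levels were 11.71 and 11.47 in silenced TOV-21G, against 12.61 and 12.40 in controls, and 11.46 and 11.59 in silenced SK-OV-3, against 11.90 and 12.00 in controls. The groups did not overlap in either line. The change in TOV-21G was -0.92 (SE 0.21, 1.89-fold lower, adjusted p = 0.0632, and 0.0450 with the block). In SK-OV-3 it was -0.42 (95% interval -0.91 to 0.07, adjusted p = 0.580), while both lines averaged -0.67 (SE 0.15, adjusted p = 0.0671, and 0.0494 with the block). The other BCL2L12 probes, annotated to other transcripts, had changes of -0.68 (ILMN_1731193) and -0.44 (ILMN_1752953) in TOV-21G and of -0.08 and -0.39 in SK-OV-3. BCL2L13, a mitochondrial relative, had a change of 0.25 in TOV-21G and -0.12 in SK-OV-3.

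Of the caspases, CASP2 had negative changes in TOV-21G at all 3 of its probes, of which 0 were called without the block and 2 with it. Caspase 2 is an initiator caspase activated by the PIDDosome after DNA damage or failed cell division. At ILMN_1736568 its levels were 9.40 and 9.59 in silenced TOV-21G, against 10.63 and 10.69 in controls, and 10.31 and 10.01 in silenced SK-OV-3, against 10.86 and 10.19 in controls. TOV-21G groups were more than 1 log2 unit apart at their nearest arrays, and SK-OV-3 groups overlapped. The change in TOV-21G was -1.16 (SE 0.27, 2.24-fold lower, adjusted p = 0.0638, and 0.0356 with the block), and in SK-OV-3 -0.37 (adjusted p = 0.743).

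The remaining CASP2 probes share an annotated transcript that differs from the first. ILMN_2410540 had levels of 12.30 and 12.13 in silenced TOV-21G, against 13.09 and 13.27 in controls, with a change of -0.97 (SE 0.31, adjusted p = 0.141, and 0.0475 with the block). In SK-OV-3 it read 13.09 and 12.44 in silenced cells, against 13.46 and 12.80 in controls, a change of -0.36 (adjusted p = 0.782). In SK-OV-3 each silenced array was below the control of the same experiment while the groups overlapped. ILMN_2296057 had a change of -0.69 in TOV-21G (adjusted p = 0.497, and 0.135 with the block) and -0.72 in SK-OV-3 (adjusted p = 0.704), each with an SE of 0.49. For the mean of both lines, the first CASP2 probe had a change of -0.76 (adjusted p = 0.0851, and 0.0467 with the block) and ILMN_2410540 one of -0.67 (0.146, and 0.0542 with the block).

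CASP2 is shown with its promoters because 2 of its probes were called and its transcripts start at separate places. RefSeq (GRCh38.p14) gives a pair of start windows for it on the plus strand of chromosome 7, each running from 250 bases before to 50 after an annotated start. The windows were searched on both strands for the cell cycle homology region, TTTGAA or TTCGAA, and for the E2F letters TTTGGCGC or TTTCGCGC. A match is shown in capitals.
CASP2 chr7:143288101-143288400: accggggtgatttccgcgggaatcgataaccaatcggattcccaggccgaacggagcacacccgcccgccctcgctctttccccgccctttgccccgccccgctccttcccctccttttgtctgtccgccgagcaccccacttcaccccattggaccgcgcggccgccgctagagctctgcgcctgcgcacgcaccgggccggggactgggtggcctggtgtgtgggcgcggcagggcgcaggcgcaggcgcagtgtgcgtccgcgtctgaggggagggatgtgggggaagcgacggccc
CASP2 chr7:143289338-143289637: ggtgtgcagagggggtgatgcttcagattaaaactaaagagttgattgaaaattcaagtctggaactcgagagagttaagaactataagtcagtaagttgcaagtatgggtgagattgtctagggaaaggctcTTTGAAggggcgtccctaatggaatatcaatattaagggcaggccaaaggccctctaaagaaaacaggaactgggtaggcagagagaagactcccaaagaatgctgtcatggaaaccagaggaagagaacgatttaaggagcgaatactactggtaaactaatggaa
The second window holds TTTGAA from its base 134, 117 bases before the start site, and the first holds neither motif. The cell cycle letters occurred in 5742 of 35116 RefSeq windows of 300 bases (16.4%) and in 7 of the 47 windows of 27 tested member genes, those of BNIP1, BOK, CASP2, CFLAR and DFFA. The E2F letters occurred in 1.15% of all windows and in 0 of the 47. Of the 5 genes called with the block, CASP2, DAPK3 and BCL2L12 were matched to windows, and neither motif stood in those of DAPK3 and BCL2L12.

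CASP9 and CASP10 had small changes. CASP9, the apoptosome's caspase, had a pair of probes with changes of -0.34 and -0.19 in TOV-21G and of 0.04 and -0.04 in SK-OV-3. CASP10, an initiator at death receptors, had a change of 0.30 in TOV-21G and -0.38 in SK-OV-3, with 95% intervals from -0.21 to 0.82 and from -0.89 to 0.14. Of the 6 tested caspase probes, 5 lay below 0 in each line, with medians of -0.52 in TOV-21G and -0.37 in SK-OV-3, and 3 of these 6 probes belong to CASP2.

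Genes of the apoptosome and the mitochondrial intermembrane space showed no common direction, and MOAP1 had the largest change. MOAP1 encodes a modulator of apoptosis that binds BAX and helps to activate it. Its levels were 10.43 and 10.50 in silenced TOV-21G, against 9.07 and 9.73 in controls, and 9.36 and 9.75 in silenced SK-OV-3, against 9.19 and 9.71 in controls. The TOV-21G groups were apart and those of SK-OV-3 overlapped. MOAP1 had a change of 1.06 in TOV-21G (SE 0.30, 2.09-fold, adjusted p = 0.110, and 0.0514 with the block) and of 0.11 in SK-OV-3 (adjusted p = 0.947).

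DIABLO, the antagonist of IAPs also known as SMAC, gave different values at probes for different transcripts. ILMN_2332990 read 11.68 and 11.95 in silenced TOV-21G, against 12.40 and 12.46 in controls, with a change of -0.62 there (SE 0.21, adjusted p = 0.161). In SK-OV-3 it read 11.99 and 12.14 in silenced cells, against 12.17 and 12.23 in controls, a change of -0.14. Its silenced arrays lay below the controls in each line, by a narrow margin in SK-OV-3. The other DIABLO probes had changes of 0.30 and -0.01 in TOV-21G and of 0.15 and 0.22 in SK-OV-3. ENDOG, a mitochondrial nuclease, had a change of 0.60 in TOV-21G (adjusted p = 0.245) and 0.09 in SK-OV-3. AIFM1, a flavoprotein that moves to the nucleus in dying cells, had changes of -0.33 and -0.26 in TOV-21G and SK-OV-3, without overlap in either line. The margins were narrow, with nearest silenced and control arrays at 9.75 and 9.81 in TOV-21G and at 9.83 and 9.85 in SK-OV-3. APAF1, detected on 1 array of each TOV-21G group and on no SK-OV-3 array, had a change of 0.16 in TOV-21G. The 2 probes of HTRA2, a serine protease, had changes of 0.17 and -0.32 in TOV-21G and of 0.04 and -0.14 in SK-OV-3. CYCS, cytochrome c, had a change of 0.11 in TOV-21G and was detected on no SK-OV-3 array.

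BIRC5, which encodes survivin, was the IAP with the largest change, and 1 of its probes was called lower in silenced TOV-21G with the block. Survivin is named among the IAPs and also serves cell division as a subunit of the chromosomal passenger complex with Aurora B, INCENP and borealin. For ILMN_2349459 the levels were 7.45 and 6.37 in silenced TOV-21G, against 8.84 and 7.87 in controls, and 8.81 and 9.23 in silenced SK-OV-3, against 8.64 and 9.04 in controls. The TOV-21G groups were apart, with 1 of the 2 silenced arrays below detection, and the SK-OV-3 groups overlapped. Its change was -1.44 in TOV-21G (SE 0.44, 2.71-fold lower, adjusted p = 0.127, and 0.0255 with the block) and 0.18 in SK-OV-3 (adjusted p = 0.941). The probe for another annotated transcript, ILMN_1803124, read 10.03 and 9.50 in silenced TOV-21G, against 10.45 and 10.42 in controls, with a change of -0.67 (adjusted p = 0.214, and 0.138 with the block). In SK-OV-3 it read 11.09 and 11.08 in silenced cells, against 10.82 and 10.33 in controls, a change of 0.51 (adjusted p = 0.592). The changes in the lines differed by -1.62 and -1.18 for the 2 probes (adjusted p = 0.431 and 0.348). BIRC2 (cIAP1), a ubiquitin ligase of TNF signalling, had a change of 0.02 in TOV-21G and -0.39 in SK-OV-3, each with an SE of 0.50.

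Most partners of survivin in the passenger complex fell in TOV-21G. Of 4 tested partner genes, chosen with earlier results of these data known, 3 were called lower and 0 higher, with or without the block. Of all probes, 3.07% were called in TOV-21G, and 5.63% with the block. In SK-OV-3, 0 partners were called, beside 0% of all probes. INCENP, the scaffold, had levels of 8.48 and 8.54 in silenced TOV-21G, against 10.30 and 10.34 in controls, and fell by 1.81 (SE 0.25, adjusted p = 0.0227). AURKB, the kinase, had levels of 10.72 and 9.58 in silenced TOV-21G, against 12.53 and 12.39 in controls, and fell by 2.31 (SE 0.36, adjusted p = 0.0266). CDCA8, borealin, had levels of 11.21 and 10.58 in silenced TOV-21G, against 12.66 and 12.54 in controls, and fell by 1.70 (SE 0.27, adjusted p = 0.0266). For all 3 genes the groups lay apart. In SK-OV-3 INCENP, AURKB and CDCA8 had changes of -0.51, -0.37 and -0.35 (adjusted p = 0.566, 0.820 and 0.765), and the differences between the lines had adjusted p of 0.271, 0.267 and 0.303. Without silenced replicate 2, control replicate 1 or control replicate 2 of TOV-21G the calls were lost for INCENP (0.101, 0.139 and 0.0977), AURKB (0.101, 0.165 and 0.107) and CDCA8 (0.117, 0.165 and 0.110). AURKB and CDCA8 also lost their calls without either silenced SK-OV-3 array (0.0524 and 0.0506 for each gene), as CDCA8 did without SK-OV-3 control replicate 2 (0.050). AURKC, a relative of Aurora B, was detected at 1 probe, on 1 silenced array of each line and on no control. That probe read 6.06 and 7.35 in silenced TOV-21G, against 5.25 and 5.29 in controls. The fitted change was 1.43 (adjusted p = 0.135), and the silenced mean was 1.16-fold higher than the limit of detection in the controls. The other AURKC probes were detected on no array.

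Of the 3 death receptors, TNFRSF10D had the largest positive change of any member, and TNFRSF1A was the one whose arrays separated in opposite directions in the lines. TNFRSF10D encodes DcR2, a decoy receptor that binds TRAIL and has a truncated death domain. Its levels were 9.03 and 9.69 in silenced TOV-21G, against 7.23 and 7.99 in controls, and 7.37 and 8.12 in silenced SK-OV-3, against 8.15 and 7.55 in controls. Silenced TOV-21G arrays were above every other array, and the SK-OV-3 groups overlapped. The change was 1.75 in TOV-21G (SE 0.40, 3.37-fold, 95% interval 0.84 to 2.67, adjusted p = 0.0614, and 0.0441 with the block) and -0.10 in SK-OV-3 (adjusted p = 0.962). The difference between the lines was 1.86 (SE 0.56, adjusted p = 0.330).

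TNFRSF1A encodes TNFR1, the main death receptor for TNF. Its levels were 13 and 12.96 in silenced TOV-21G, against 13.48 and 13.41 in controls, and 13.32 and 13.24 in silenced SK-OV-3, against 12.82 and 12.66 in controls. Silenced arrays were thus below controls in TOV-21G and above them in SK-OV-3. The changes were -0.47 (SE 0.20, adjusted p = 0.246) and 0.54 (SE 0.20, adjusted p = 0.442), and their difference of -1.0 (SE 0.28) had an adjusted p of 0.291. TNFRSF10A, the TRAIL receptor DR4, had a change of 0.46 in TOV-21G and -0.32 in SK-OV-3 (adjusted p = 0.479 and 0.818).

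The adaptors had smaller changes. TRADD, the adaptor of TNFR1, had a probe, ILMN_1793831, with levels of 10.75 and 10.96 in silenced TOV-21G, against 10.40 and 10.44 in controls, and of 9.85 and 9.60 in silenced SK-OV-3, against 9.44 and 9.14 in controls. Silenced arrays lay above controls in each line, and the change was 0.43 in each (adjusted p = 0.343 in TOV-21G and 0.590 in SK-OV-3). Its other probe, ILMN_1765851, had a change of 0.55 in TOV-21G and -0.02 in SK-OV-3. FADD, the adaptor of TRAIL receptors and FAS, had changes of 0.17 and -0.15 in TOV-21G and SK-OV-3. CFLAR, which encodes the caspase 8 inhibitor c-FLIP, was detected on 1 control array of each line and on no silenced array, and had a change of -0.07 in TOV-21G and -0.80 in SK-OV-3 (adjusted p = 0.940 and 0.501).

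DAPK3 stood out among the last class, the DNA fragmentation factors and the death-associated kinase. DAPK3, also called ZIP kinase, is a serine/threonine kinase that phosphorylates myosin light chain and drives membrane blebbing. Its levels were 8.69 and 9.61 in silenced TOV-21G, against 7.05 and 8.26 in controls, and 8.45 and 8.67 in silenced SK-OV-3, against 7.85 and 8.57 in controls. TOV-21G groups were apart, though silenced array 1 and control array 2 were close, and SK-OV-3 groups overlapped. Within each TOV-21G experiment the silenced array was higher. DAPK3 had a change of 1.49 in TOV-21G (SE 0.47, 2.81-fold, adjusted p = 0.136, and 0.0280 with the block), 0.35 in SK-OV-3 (adjusted p = 0.878) and 0.92 for the mean of both lines (adjusted p = 0.177, and 0.0426 with the block). DFFA, the inhibitor and chaperone of the caspase-activated DNase, had a change of 0.70 at ILMN_2385220 and 0.12 at ILMN_1805696 in TOV-21G (adjusted p = 0.149 and 0.836). In SK-OV-3 these probes had changes of -0.20 and -0.54 (adjusted p = 0.855 and 0.509).

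**Figure D3:**
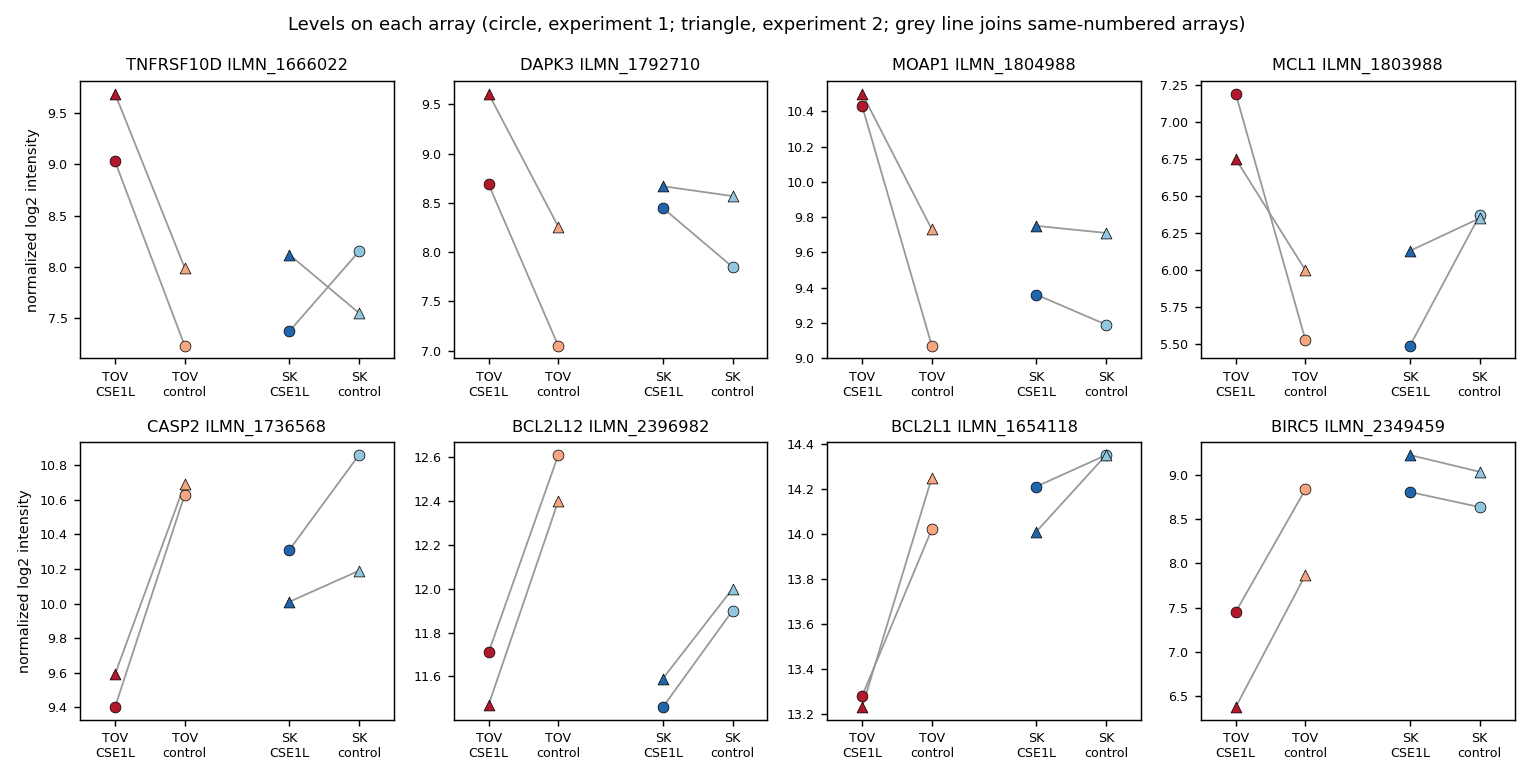
Normalized log2 intensity (vertical axis) on every array for 8 member probes, with TOV left of SK for TOV-21G and SK-OV-3, and within each line CSE1L siRNA left of control siRNA. In TOV-21G the silenced arrays lie above both controls for TNFRSF10D, DAPK3, MOAP1 and the dim MCL1 probe, and below both controls for CASP2, BCL2L12, BCL2L1 and BIRC5.

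The calls in TOV-21G sit near the threshold. TNFRSF10D, BCL2L12, CASP2 and BCL2L1 had adjusted p between 0.0614 and 0.0657 in the unblocked fit. Over the alternatives run, TNFRSF10D (ILMN_1666022) and BCL2L12 (ILMN_2396982) were each called in 6 of 19, CASP2 (ILMN_1736568) in 5 of 18 and BCL2L1 (ILMN_1654118) in 4 of 19. BIRC5, DAPK3 and the CASP2 probe ILMN_2410540 were called with the replicate block and under no other alternative. The change of TNFRSF10D ranged from 1.17 to 2.12 over the alternatives, that of BCL2L12 from -1.04 to -0.79, and that of CASP2 (ILMN_1736568) from -1.27 to -1.02. The change of DAPK3 ranged from 0.89 to 2.09 and that of BIRC5 from -1.98 to -0.73.

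Between the scrambled siRNA controls of the lines, taken at the same 72 h, there were differences in 10 member probes of 9 genes, and all 10 were higher in TOV-21G. These are 20.0% of the members, against 32.9% of all probes called between the control groups. The same control arrays enter the silencing changes above. TNFRSF10A led them, with 10.14 and 10.26 in TOV-21G controls, against 7.56 and 7.47 in SK-OV-3 controls. It was 2.69 higher in TOV-21G (SE 0.31, 6.45-fold, adjusted p = 0.000388). BID, which caspase 8 cleaves to link death receptors to mitochondria, had 9.83 and 10.17 in TOV-21G controls, against 8.57 and 7.77 in SK-OV-3 controls, a difference of 1.83 (SE 0.32, adjusted p = 0.00317). For both genes the TOV-21G controls lay well above those of SK-OV-3.

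HTRA2 was higher in TOV-21G at both probes, by 1.15 (SE 0.23, ILMN_1785574, adjusted p = 0.00675) and by 1.06 (SE 0.34, ILMN_1747204, adjusted p = 0.0432). TRADD was higher by 1.13 at ILMN_1793831 (SE 0.22, adjusted p = 0.00577), while its other probe differed by 0.13 (adjusted p = 0.755) although it is annotated to the same transcript. Cytochrome c (CYCS) and a BAD probe (ILMN_1720360) were undetected in SK-OV-3 controls. They were 1.73-fold and 1.71-fold higher in TOV-21G controls than the limit of detection in SK-OV-3 controls. The fitted differences were 1.30 and 1.67 (adjusted p = 0.0246 and 0.0163). The other BAD probes differed by -0.13 and -0.15 between the lines (adjusted p = 0.661 and 0.657). TNFRSF1A, CASP9 (ILMN_1718070) and BCL2L12 (ILMN_1731193) were higher in TOV-21G by 0.70, 0.73 and 0.74 (adjusted p = 0.0281, 0.0391 and 0.0479).

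**Figure D4:**
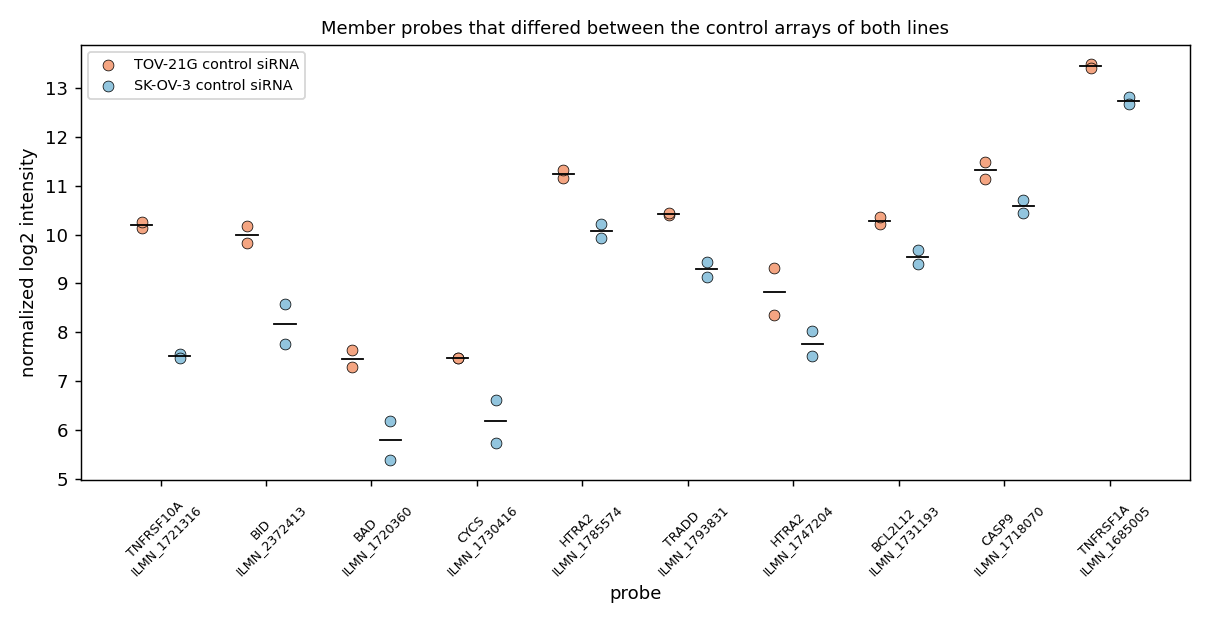
Normalized log2 intensity (vertical axis) on the 4 control arrays for the 10 member probes that differed between the lines, TOV-21G left of SK-OV-3. Every TOV-21G control lies above both SK-OV-3 controls, and the gap is widest for TNFRSF10A, at 2.69 between the means.

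The differences for TNFRSF10A, BID, TRADD (ILMN_1793831) and HTRA2 (ILMN_1785574) were called under all 19 alternatives run for each of these probes. The other 6 calls each rested on particular control arrays. Without control replicate 1 of TOV-21G there was no call for CYCS (0.0879), TNFRSF1A (0.123), CASP9 (0.206), BCL2L12 (0.119) and HTRA2 (ILMN_1747204, 0.238). Without control replicate 2 of TOV-21G there was none for CYCS (0.0870), TNFRSF1A (0.0952), CASP9 (0.0616), BCL2L12 (0.182) and BAD (0.0813). Without SK-OV-3 control replicate 1 the calls for TNFRSF1A (0.0582), CASP9 (0.160), BCL2L12 (0.0767) and HTRA2 (ILMN_1747204, 0.200) were lost. All 6 were lost without SK-OV-3 control replicate 2: CYCS (0.140), BAD (0.107), TNFRSF1A (0.113), CASP9 (0.0652), BCL2L12 (0.197) and HTRA2 (0.0626). CASP9 and BCL2L12 were also lost without either silenced SK-OV-3 array (0.0614 and 0.0615 for CASP9, 0.0574 and 0.0584 for BCL2L12), and HTRA2 (ILMN_1747204) without any silenced array (0.0527 to 0.0654). For the control groups the replicate block was 1 term for the experiment number shared by both lines, unlike the block within each line used for silencing. It ended the calls for CASP9 (0.0546), BCL2L12 (0.0603) and HTRA2 (ILMN_1747204, 0.0555). Under the authors' own normalization the BAD and CYCS differences were 0.34 and 0.35 (adjusted p = 0.0766 and 0.136).

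Other genes of the pathway gave 3 calls among 44 tested probes in TOV-21G (6.82%, against 3.07% of all probes), with a median change of 0.14 beside 0.01 over all probes. TNF, the ligand of TNFR1, had levels of 9.47 and 9.54 in silenced TOV-21G, against 12.14 and 11.89 in controls, and fell by 2.51 (SE 0.38, 5.70-fold, adjusted p = 0.0266). It was detected on no SK-OV-3 array. LMNA, a lamin cleaved by caspases, rose by 1.10 at ILMN_1696749 (SE 0.21, adjusted p = 0.0394) and had a change of 0.89 at ILMN_1737394 (adjusted p = 0.105). PEA15, a death effector domain protein that binds FADD, rose by 1.45 (SE 0.29, adjusted p = 0.0435). The calls were lost without TOV-21G silenced replicate 1, silenced replicate 2, control replicate 1 or control replicate 2 for TNF (0.0648, 0.107, 0.165 and 0.0977), LMNA (0.0784, 0.162, 0.195 and 0.169) and PEA15 (0.0706, 0.178, 0.232 and 0.0977). They were also lost without either silenced SK-OV-3 array (0.0506 to 0.0768), and those for LMNA and PEA15 without either SK-OV-3 control (0.0617 to 0.0715). Median scaling ended the calls for LMNA (0.96, adjusted p = 0.197) and PEA15 (1.34, adjusted p = 0.139) and kept that for TNF (0.00673). PEA15 also lost its call with the authors' normalized values (0.0585) and with no detection filter (0.0606), and all 3 did with only the 4 TOV-21G arrays (0.0995 to 0.137). BAX, the partner of BAK, had a change of 1.23 at ILMN_1683300 (adjusted p = 0.250, and 0.0361 with the block) and of 0.07 at ILMN_2321064 (adjusted p = 0.958, and 0.888 with the block), both detected on all 8 arrays. In SK-OV-3 0 of the 44 were called, and TP53I3, a p53 target, had the smallest p with a change of -1.02 (adjusted p = 0.219). The other TP53I3 probe, detected on no SK-OV-3 array, had a change of 0.03 there (adjusted p = 0.977). Next by p in SK-OV-3 were PDCD4, TNFRSF25 and LMNA (ILMN_1696749). Their changes were 0.93, -0.70 and 0.58 (adjusted p = 0.377, 0.399 and 0.435). Between the control groups, 8 of the 44 were called higher and 3 lower in TOV-21G (25.0%, against 32.9% of all probes). The higher probes were of AEN, BAX, RIPK3, TNF, TNFRSF10B and TP53I3, and the lower ones of AIFM2, LMNA and TNFRSF25. LMNA was called at ILMN_1737394 (-0.98, adjusted p = 0.0187), while ILMN_1696749 differed by 0.02 (adjusted p = 0.961). BAX was called at ILMN_2321064 (1.66, adjusted p = 0.0194) and not at ILMN_1683300 (0.99, adjusted p = 0.187). TNF had a fitted difference of 6.52 (adjusted p = 1.12e-05) against undetected SK-OV-3 controls. How these calls depend on single arrays is not given here.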

How the data were processed

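Total RNA of 8 samples was hybridised as biotin-labelled cRNA, 2 arrays in each of 4 groups, grouped by the sample titles. The deposited table held non-normalized bead intensity on a linear scale with a detection p-value beside each value, per the file headers, and the software was BeadStudio 2, per the submitters' processing notes. The authors also deposited normalized intensity, whose method is not given in the sources used here. In R 4.3.3, limma 3.58.1 removed background by normexp, guided by detection p-values (offset 16), then quantile normalized the signals and took log2. Probes detected (p below 0.01) on at least 2 arrays were tested as themselves, 10888 of 24531. Gene symbols came from the platform annotation, which named 1 gene for 21838 probes and none for 2693.

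limma fitted 4 group means to all 8 arrays (4 residual and 3.95 prior degrees of freedom), and p-values were adjusted by Benjamini-Hochberg over all tested probes, and called below 0.05. Standard errors (SE) are those of log2 changes. Where a probe was undetected on both arrays of a group, the fold is set against the dimmest detected probe there. Such a fold is a point value under this normalization and not a minimum. With the authors' normalized values the changes of CDH1, MCL1, BMF, CYCS and BAD were smaller. A change against such a group is otherwise a fitted value. Number of arrays limits the precision.

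The member genes, the classes, the further pathway genes, the survivin partners and the motifs were chosen with earlier results of these data known. Genes were named by this rule: CSE1L, member probes past the threshold, in each comparison the 5 members with the smallest p, in each class the brightest and the most changed probe, every probe of a gene with more than 1 tested probe, members without a tested probe, tested partners of BIRC5, and pathway genes past the threshold or, where none was, those with the smallest p. The remaining members are given too. Pathway genes with the smallest p are given for SK-OV-3 and not for the difference between the lines. Calls, SEs and intervals come from the unpaired fit unless the block is named. The blocked fit for silencing paired arrays of a line by experiment number, going by the correlation of same-numbered deviations. That correlation was 0.548 in TOV-21G and 0.121 in SK-OV-3 (-0.184 and -0.131 between the lines). With 1 correlation per line the pairing remains uncertain, and counts of the blocked fit were known beforehand.

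Settings tried beside this were the experiment number as a replicate block, each array left out in turn, scaling by the median, signals without background correction, an offset of 50, the authors' normalized values, no detection filter, detection on all 8 arrays, 1 probe a gene, an adjusted p of 0.01, a trended, robust prior in limma, and only the 4 arrays of a comparison. No slide is given, so a block on it could not be run. Scripts were tested on simulated data. Promoter windows are RefSeq's (GRCh38.p14), matched by symbol for 27 of 35 tested member genes. Plots used matplotlib 3.10.9 (Python 3.11.15).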

Additional observations from a re-analysis of the deposited data

How the results depend on the processing

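In SK-OV-3 and for the difference between the lines, 0 member probes were called under every alternative run. In TOV-21G, where 0 were called, the count was 6 with the replicate block, 5 without background correction, 4 with an offset of 50, 3 with the values normalized by the authors, 4 with detection on all 8 arrays and 4 with a trend and robust spread. For the mean of both lines, also 0, these settings gave 3, 3, 1, 1, 2 and 3 in the same order. Leaving out any 1 array gave 0 in both. Between the control groups, 10 calls became 4 at an adjusted p threshold of 0.01 and 4 to 10 without 1 array, the lowest without SK-OV-3 control replicate 2. TNFRSF1A (adjusted p = 0.249), CASP9 (0.115) and BCL2L12 (0.137) lost these calls with median scaling. No member's called value changed direction under the alternatives run.

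Over all probes, the 334 calls in TOV-21G (120 higher and 214 lower) became 298 with median scaling (55 higher and 243 lower), which shifted the median change of all probes by -0.10. They became 613 with the replicate block, 578 without background correction, 548 with a trend and robust spread, 0 with only the 4 TOV-21G arrays, 0 at a threshold of 0.01, and 0 to 175 without 1 array. For the mean, 217 calls became 481 with the block, 500 without background correction, 497 with a trend, 327 with the authors' values, 365 with detection on all arrays, 131 with no filter, 4 at 0.01, and 0 to 116 without 1 array. In SK-OV-3 0 calls became up to 25 and for the difference up to 10, both with a trend. Between controls 3585 became 2197 with detection on all arrays and 2089 at 0.01. Of the 78 probes, 26 were detected on no array, and for probes seen in 1 group alone the fold depends on the background: the MCL1 change of 1.21 was 0.22 with the authors' values, and the BMF change of 1.72 was 0.18.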
